A study of Nematostella vectensis with 10 samples.

Results

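The 3 forkhead genes among the published cnidocyte genes named for this study are *NvfoxE-like* (NV2.25991), *foxL2* (NV2.14459) and *foxA* (NV2.11441). They were picked by name from the supplementary list of those genes and found in the files by gene number, and are 3 of 24520 genes with 7 of 35819 transcripts. The files hold no annotation, so the names rest on that list. Their RNA was measured in 10 libraries of poly(A) RNA from whole *Nematostella vectensis* gastrulae of wildtype genotype at 28 hours post fertilization (hpf), raised at 24 °C. In 5 libraries the embryos had been injected with a shRNA against *Nvznf845*, a zinc finger gene, and in the other 5 with a control, named scramble RNA in the labels and control shRNA in the methods. Each library is a pool of about 1000 embryos. The *Nvznf845* shRNA is a single hairpin, so an effect of the hairpin other than on *Nvznf845* cannot be told apart from the knockdown. Knockdown and control libraries come in 5 pairs that share a replicate number and a batch. Pairs 4 and 5 share a batch and the other 3 pairs have a batch each.

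Forkhead proteins are transcription factors that bind DNA through a winged-helix domain and are sorted by the sequence of that domain into lettered classes. Cnidocytes, the stinging cells of cnidarians, arise from progenitors shared with neurons and build a collagen-walled capsule. In vertebrates FoxE proteins act in thyroid and lens, FoxL2 in the ovary, and FoxA proteins in endoderm; in *Nematostella* *foxA* is known from the blastopore region and pharynx.

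*Nvznf845* (NV2.17877) itself fell in all 5 pairs (log2 fold change −2.42, edgeR adjusted p = 5.06e-07). It was at 6.80 to 12.9 CPM in the *Nvznf845* shRNA libraries and at 51.5 to 59.3 CPM in those of the control, where CPM is counts relative to a library size corrected for composition (TMM). Total counts were 20848941 to 35960095 after knockdown and 18891111 to 49293261 in controls. Pair 3 stood apart: its 10 most abundant genes held 67.4% of the counts in the knockdown library and 56.0% in the control library, against 6.24% to 33.3% in the other 8 libraries. The TMM scale lowers the library size of that knockdown library to 13091187, against 22835228 to 40507834 for the other 9, and TPM, the unit of the files that sums to the same total in every library, is not adjusted in this way. Calls needed an adjusted p no larger than 0.05 together with a change of 1.5-fold or more, 0.585 on the log2 scale. By this rule 4.23% of the 19001 genes tested were lower and 1.21% higher. Of 7 cnidocyte capsule genes all 7 fell after knockdown. The supplementary list already marks all 7 as regulated by *Nvznf845*, from this same experiment, so their fall is not an independent result. Some other cnidocyte genes of that list are not so marked. The summed level of the 7 was 36.96 to 53.8 CPM in knockdown libraries and 871 to 1234 CPM in controls. None of the 7 was at 0 counts over a whole group, but *Ncol* had only 1 count over the 5 knockdown libraries together.

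The 3 genes lay at very different levels, in the same order in all 10 libraries. Per transcript length, *foxA* was at 104.0 ± 40.4 TPM after knockdown and 131 ± 45.8 TPM in controls (SD, n = 5 each). *NvfoxE-like* was at 27.4 ± 10.6 TPM after knockdown and 40.9 ± 13.0 TPM in controls, and *foxL2* at 1.75 ± 0.432 TPM after knockdown and 5.43 ± 1.73 TPM in controls. In controls, 96.6% of all 24520 genes had a lower mean TPM than *foxA*, 88.3% a lower one than *NvfoxE-like* and 53.2% a lower one than *foxL2*. Within a library *foxA* was 2.97 to 4.93 times as high as *NvfoxE-like* after knockdown (median 3.76) and 2.67 to 3.75 times in controls (median 3.00). Over all libraries the TPM ranges of these neighbours overlapped, since *foxA* in knockdown library 3 (40.8 TPM) lay below *NvfoxE-like* in control library 2 (53.4 TPM). *NvfoxE-like* was 10.4 to 18.5 times as high as *foxL2* after knockdown (median 14.8) and 6.39 to 8.53 times in controls (median 7.22), and the ranges of these neighbours did not overlap.

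*foxL2* fell to 35.3% of its control level after *Nvznf845* knockdown, and it was the only one of the 3 forkhead genes to be called. It had 42, 53, 34, 42 and 62 counts in knockdown libraries 1 to 5, and 126, 164, 139, 134 and 200.3 counts in control libraries 1 to 5. Scaled to CPM, these were 1.84, 1.73, 2.60, 1.55 and 1.53 after knockdown, against 5.13, 6.90, 4.85, 4.27 and 5.02 in controls. The groups did not overlap, and in 4.75% of the 19001 genes tested all knockdown values were likewise below all control values. Within its group knockdown replicate 3 was the highest. By edgeR's quasi-likelihood test the log2 fold change was −1.52 (standard error 0.196, 95% interval −1.95 to −1.08) with an adjusted p = 0.000246. Thus 1 of the 3 forkhead genes was called lower and none higher, against 4.23% lower and 1.21% higher among all genes tested. The supplementary list already marks *foxL2*, and neither *NvfoxE-like* nor *foxA*, as regulated by *Nvznf845*, from this same experiment.

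The size of the fall of *foxL2* varied between pairs. Knockdown libraries kept 35.8%, 25.1%, 53.6%, 36.2% and 30.5% of the control CPM in pairs 1 to 5, where *Nvznf845* kept 18.4%, 22.7%, 11.5%, 22.0% and 18.5%. Pair 3 thus had the most *foxL2* left and the least *Nvznf845* left. Counting error alone was 12.7% to 17.2% of a *foxL2* value after knockdown and 7.07% to 8.90% in controls, against a spread between libraries of 23.7% after knockdown and 18.9% in controls (coefficient of variation, n = 5 each). In RNA from whole embryos, fewer cells of a type and less RNA per cell cannot be told apart. The capsule genes moved with *foxL2* in all 5 pairs, and their part in its fall was not tested. The call of *foxL2* held in all 28 alternative settings, with log2 fold changes of −1.20 to −1.69.

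**Figure D1:**
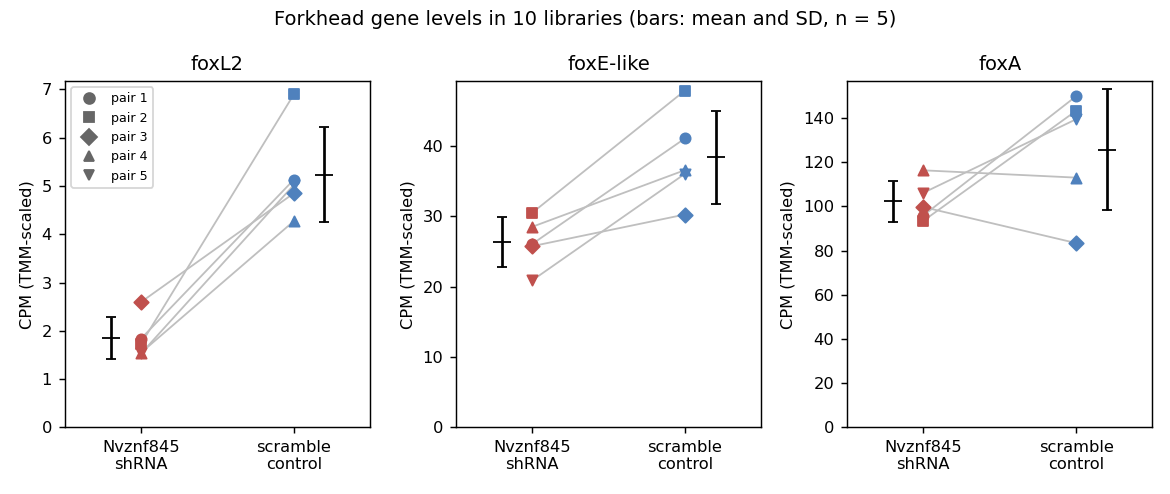
CPM (TMM-scaled, linear axis from 0) of *foxL2*, *NvfoxE-like* and *foxA* in the 5 *Nvznf845* shRNA libraries (red, left) and the 5 scramble control libraries (blue, right). Grey lines join the libraries of a pair, symbols mark the pair, and black bars give mean and SD (n = 5). The *foxL2* groups lie apart, the *NvfoxE-like* groups meet between 30.2 and 30.5 CPM, and the *foxA* knockdown values of 93.4 to 116 lie inside the control range.

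*NvfoxE-like* was lower after *Nvznf845* knockdown in each pair by a small amount that lay beside the limit for a call. It had 595, 932, 337, 773 and 846 counts in knockdown libraries 1 to 5, and 1009.8, 1138, 869, 1146 and 1437 counts in control libraries 1 to 5. In CPM these were 26.1, 30.5, 25.7, 28.5 and 20.9 after knockdown, against 41.0, 47.9, 30.2, 36.5 and 36.0 in controls. The groups overlapped only through the knockdown library of pair 2, the highest of its group at 30.5 CPM, and the control library of pair 3, the lowest of its group at 30.2 CPM. Each knockdown library was below its own control, as was the case for 8.34% of the genes tested, and kept 63.5%, 63.7%, 85.1%, 78.0% and 57.9% of it in pairs 1 to 5. The log2 fold change of −0.54 (95% interval −0.85 to −0.24) had an adjusted p = 0.0425 from edgeR and did not reach 0.585 in size. Of the genes tested, 7.93% had a fold change at or below this value, 3.48% one at or below that of *foxL2* and 14.8% one at or below that of *foxA*.

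Counting error was smaller than the spread between libraries for *NvfoxE-like*. It was 3.28% to 5.45% of a knockdown value and 2.64% to 3.39% of a control value, with a spread between libraries of 13.7% after knockdown and 17.1% in controls (coefficient of variation, n = 5 each). Its counts were not whole numbers in any of the 10 libraries, as is found where Salmon divides reads among transcripts. Of 19134 single-transcript genes, 3964 had no fractional count in any library (tolerance 1e-06). The library-size scale bore on the test: in TPM, *NvfoxE-like* was at 25.2, 39.0, 10.8, 33.4 and 28.6 after knockdown and at 36.1, 53.4, 20.6, 48.2 and 46.4 in controls. Both values of pair 3 were the lowest of their groups on that scale. When edgeR used plain library sizes, the log2 fold change was −0.59 and the adjusted p was 1.0. When limma was run on log2(TPM + 1) values, they were −0.60 and 1.0.

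The direction for *NvfoxE-like* was the same in all 28 alternative settings, with log2 fold changes of −0.45 to −0.62, and the call was made in 3 of them. Those were the fits without control replicate 3 (−0.62, adjusted p = 0.0139 from edgeR), without knockdown replicate 2 (−0.60, adjusted p = 0.0446) and without pair 3 (−0.62, adjusted p = 0.0308). In 8 other settings the adjusted p was met and the fold change was not, among them the replicate block (−0.54, adjusted p = 0.0312 from edgeR), DESeq2 (−0.55, adjusted p = 0.0112) and limma-voom (−0.54, adjusted p = 0.0493). In the remaining 17 the adjusted p was over 0.05, including the batch of pairs 4 and 5 alone (−0.57, adjusted p = 0.163 from edgeR).

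**Figure D2:**
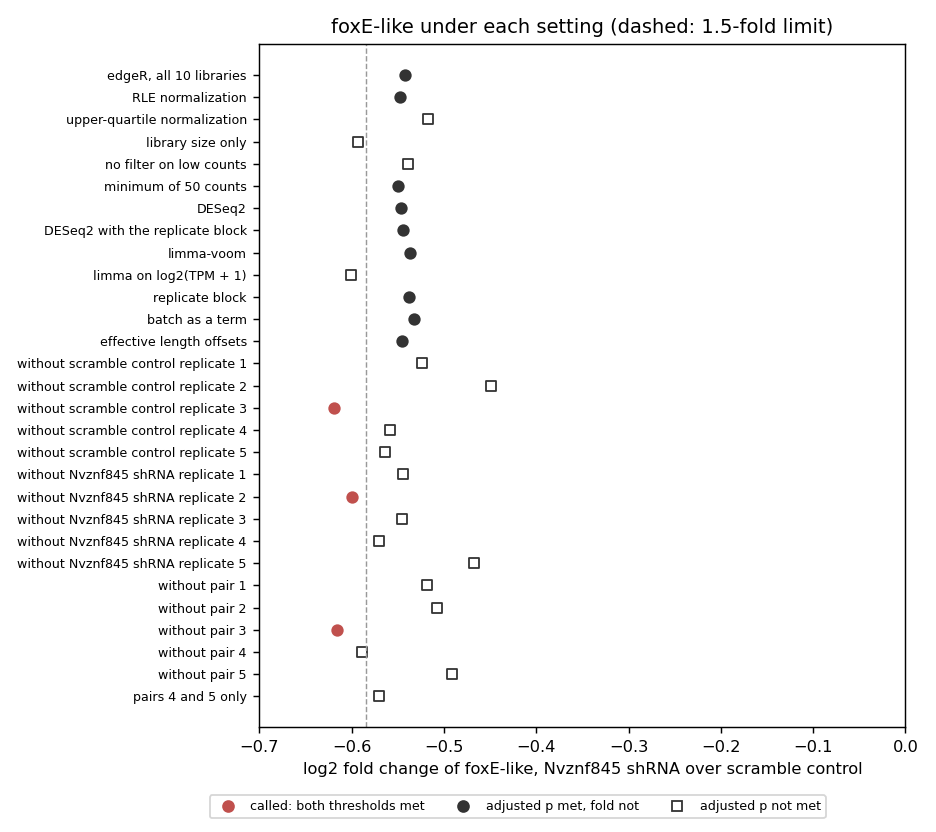
Log2 fold change of *NvfoxE-like* (horizontal axis, *Nvznf845* shRNA over scramble control) with all 10 libraries and in 28 alternative settings, 1 per line. The dashed line marks the limit at 0.585 in size, red circles are called, black circles meet only the adjusted p, and open squares do not meet it. All values are negative, and the 3 red circles are fits that leave out control replicate 3, knockdown replicate 2 or pair 3.

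*foxA* did not pass the test. It had 2188, 2857, 1305, 3155 and 4298 counts in knockdown libraries 1 to 5, and 3686, 3403, 2396, 3543 and 5559 in control libraries 1 to 5. In CPM it was at 95.8, 93.4, 99.7, 116 and 106 after knockdown, against 149.8, 143, 83.4, 113 and 139 in controls. The knockdown value was below its control in pairs 1, 2 and 5 and above it in pairs 3 and 4, and all 5 knockdown values lay within the range of the controls. In edgeR the log2 fold change was −0.30 with an adjusted p = 0.468 and a 95% interval of −0.63 to 0.038, an interval that includes no change and also a fall past 1.5-fold. In CPM, knockdown libraries differed less among themselves than controls, with coefficients of variation of 8.97% after knockdown and 21.9% in controls (n = 5 each). The lowest control value, 83.4 CPM, was that of pair 3. This contrast depended on the scale. In TPM the SD was 40.4 at a mean of 104.0 after knockdown and 45.8 at a mean of 131 in controls. Relative to the mean, the knockdown spread was not the smaller there. Counting error was at most 2.77% of a value. It was called in none of 28 alternative settings; without control replicate 3 the adjusted p was 0.0415 (edgeR) at a log2 fold change of −0.42, short of the limit.

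The ratio of 2 genes within a library does not depend on how libraries are scaled, so it was used to compare the changes of the 3 genes in the 3 possible combinations. *foxL2* changed more than either other gene. The log2 ratio of its counts to those of *NvfoxE-like* was −3.82, −4.14, −3.31, −4.20 and −3.77 in knockdown libraries 1 to 5, against −3.00, −2.79, −2.64, −3.10 and −2.84 in control libraries 1 to 5. Every knockdown ratio was below every control ratio, and the group means differed by −0.97 (p = 0.00794, two-sided exact permutation test over libraries, the smallest p it allows; adjusted over the 3 combinations p = 0.0119). The log2 ratio of *foxL2* to *foxA* was −5.81 ± 0.383 after knockdown and −4.57 ± 0.323 in controls (SD, n = 5 each). It was lower in all 5 pairs, with a difference of −1.24 and the same exact permutation p of 0.00794, adjusted p = 0.0119. A paired exact test by sign flips cannot go below 0.0625 with 5 pairs, and gave that value for both ratios and for the ratio of *NvfoxE-like* to *foxA*.

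The ratio of *NvfoxE-like* to *foxA* was lower after knockdown in all 5 pairs, and the test over libraries did not pass. Their log2 ratio was −1.88, −1.62, −1.95, −2.03 and −2.35 in knockdown libraries 1 to 5, against −1.87, −1.58, −1.46, −1.63 and −1.95 in control libraries 1 to 5. The groups overlapped, and the difference of −0.27 had a p = 0.0952 by the exact permutation test (adjusted p = 0.0952). By pair, the difference was −0.011 and −0.035 in pairs 1 and 2, and −0.49, −0.40 and −0.39 in pairs 3, 4 and 5. In the first 2 of these pairs *NvfoxE-like* and *foxA* thus kept nearly the same share of their control CPM, 63.5% and 64.0% in pair 1 and 63.7% and 65.3% in pair 2. In pairs 3 and 4 *NvfoxE-like* kept 85.1% and 78.0%, and *foxA* was at 120% and 103% of its control. The test stayed short of the threshold in 12 alternative settings and passed in 1. That was the setting without knockdown replicate 2, where the difference was −0.35 with an adjusted p = 0.0318 (exact permutation test).

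**Figure D3:**
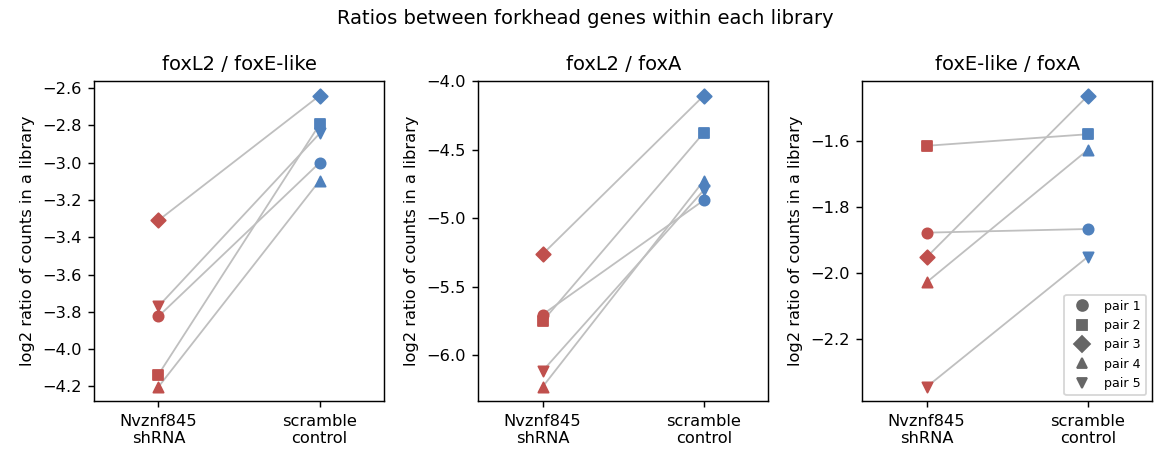
Log2 ratio of the estimated counts of each combination of the 3 forkhead genes within a library, for the 5 *Nvznf845* shRNA libraries (red, left) and the 5 scramble control libraries (blue, right), joined by pair. Both ratios with *foxL2* on top are lower in all knockdown libraries than in any control, and the ratio of *NvfoxE-like* to *foxA* is nearly level in pairs 1 and 2.

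The gene models hold 1 transcript of *NvfoxE-like* (1760 bases) and 3 transcripts each of *foxL2* and *foxA*, and 1 transcript held nearly all of the RNA of each gene. For *foxL2* this was NV2t014459002.1 (1756 bases), with 97.3% to 100% of the gene's TPM after knockdown and 97.0% to 100% in controls. The transcript of 4892 bases, NV2t014459003.1, had 0 to 4.18 counts after knockdown and 0 to 11.2 in controls, and NV2t014459001.1 (1844 bases) was listed at 0 in all 10 libraries. For *foxA*, NV2t011441003.1 (1804 bases) held 98.7% to 99.8% after knockdown and 98.1% to 99.5% in controls. NV2t011441001.1 (1994 bases) had 0 to 31.8 counts after knockdown and 6.33 to 48.9 in controls, and NV2t011441002.1 (2736 bases) had 0 to 12.4 counts after knockdown and 2.01 to 17.4 in controls.

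Shares of the transcripts were not shown to differ between the groups. Of 5 transcripts with a share that varied, the mean share of TPM differed by −0.53 to 0.53 percentage points, with p-values of 0.167 to 0.540 (two-sided exact permutation test, adjusted p = 0.540 for all 5). The shares of a gene add up to the whole, so these 5 tests are not separate. For *foxL2* the difference of NV2t014459003.1 (0.53) mirrors that of NV2t014459002.1 (−0.53). The widest difference, that of NV2t014459002.1, was −1.52 points for shares of estimated counts, −0.25 without control replicate 4 and −1.01 without control replicate 1. In the test across 25465 transcripts, 3.32% were called lower and 0.691% higher. Of the 7 forkhead transcripts 4 had enough counts, and 1 was called: NV2t014459002.1 of *foxL2* was at 1.75 ± 0.368 CPM after knockdown and 5.06 ± 0.965 CPM in controls (SD, n = 5 each). Its log2 fold change was −1.54, with an edgeR adjusted p = 0.000666. With plain library sizes in edgeR it missed the threshold (−1.67, adjusted p = 0.0698). The single *NvfoxE-like* transcript had a log2 fold change of −0.54 with an adjusted p = 0.0822 from edgeR, in a separate fit over transcripts (standard error 0.147, against 0.140 in the fit over genes). This transcript stayed uncalled in 12 alternative settings and was called lower in 1, without control replicate 3 (−0.62, adjusted p = 0.0290 from edgeR). The main transcript of *foxA* had one of −0.29 (adjusted p = 0.653), and NV2t011441001.1 one of −1.12 with a 95% interval of −2.93 to 0.70 (adjusted p = 0.827). For the last of these the value was −1.83 without knockdown replicate 1.

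**Figure D4:**
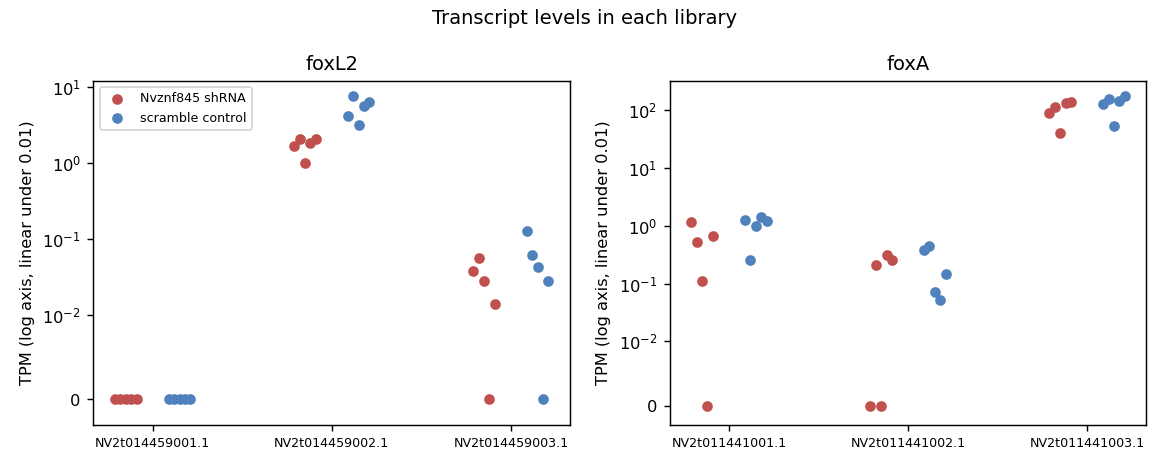
TPM of each annotated transcript of *foxL2* and *foxA* (log axis, linear under 0.01) in the 5 *Nvznf845* shRNA libraries (red, left of each tick) and the 5 scramble control libraries (blue, right). A single transcript of each gene lies far above the other 2 in every library, and NV2t014459001.1 is at 0 in all 10.

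Beside the forkhead genes, 11 other transcription factor genes from the same published list were examined. Of these, 6 fell, none rose and 5 were not called (4.23% of all genes tested were called lower and 1.21% higher), with a median log2 fold change of −1.23 against 0.0099 over all genes tested. The published list already marks the same 6 as regulated by *Nvznf845*, from this same experiment, so the count is not an independent result. The largest falls were those of *cnido-jun*, a relative of the AP-1 subunit Jun (−6.59 on the log2 scale, edgeR adjusted p = 6.15e-08), and of the paired-box gene *NvpaxA* (−5.74, adjusted p = 7.33e-09). The 95% interval of *foxL2* overlapped that of *sox2*, an HMG-box gene of the Sox family (−1.54 to −0.92), and that of *GFI1B-like3*, a zinc finger gene (−2.66 to −1.78). It lay above those of *coup-like1*, a relative of the COUP-TF nuclear receptors (−3.34 to −2.52) and *cnido-jun* (−7.32 to −5.86). With plain library sizes in edgeR *sox2* was at −1.25 and missed the threshold (adjusted p = 0.188), as it did with limma on log2(TPM + 1) values (−1.25, adjusted p = 0.0853), against −1.23 with TMM. *NvfoxE-like* stood beside *ATF2-like1*, a bZIP gene, which also met the adjusted p and not the limit on the fold change. *ATF2-like1* was at 40.1 ± 5.11 CPM after knockdown and 54.8 ± 1.04 CPM in controls (SD, n = 5 each), or −0.45 on the log2 scale, with a 95% interval of −0.67 to −0.23 and an edgeR adjusted p = 0.0160. The interval of *foxA* overlapped those of *SoxA* (−0.82 to 0.092), *cnido-fos*, a relative of Fos (−0.59 to 0.44), and the homeobox gene *Nkx2.2D* (−0.20 to 0.59). It also overlapped those of *ATF2-like1* and *NvfoxE-like*, and the interval of *NvfoxE-like* likewise overlapped those of *SoxA* and *cnido-fos*. *cnido-fos* was at 3.26 ± 0.832 CPM after knockdown and 3.41 ± 0.844 CPM in controls, and *Nkx2.2D* at 15.8 ± 3.37 CPM after knockdown and 13.8 ± 2.71 CPM in controls (SD, n = 5 each). Neither passed the test. The sign for *cnido-fos* was positive without knockdown replicate 2 (0.051) and without pair 1 (0.041), against −0.074 with all libraries. Differences between a forkhead gene and these genes were not tested beyond the intervals.

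**Figure D5:**
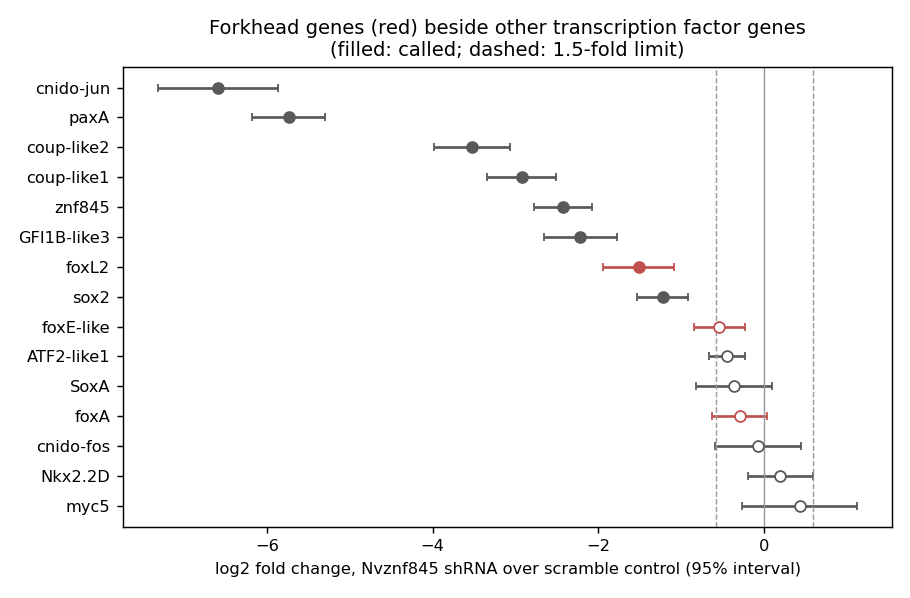
Log2 fold change (*Nvznf845* shRNA over scramble control, edgeR) with 95% interval for the 3 forkhead genes (red), *Nvznf845* and 11 other transcription factor genes, ordered by value. Filled points are called and dashed lines mark 0.585 in both directions. *foxL2* lies at −1.52 among the called genes, next to *sox2*, and *NvfoxE-like* and *foxA* lie at −0.54 and −0.30 among those not called.

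The genes with the most similar profile over the 10 libraries differed between the 3 forkhead genes. Likeness was the root mean square difference between log2 CPM profiles, each centred on its own mean. For *foxL2* the nearest of the other tested genes were NV2.13300, NV2.22507 and NV2.1420, at 0.13, 0.14 and 0.19 on the log2 scale. NV2.13300 was at 1.43 ± 0.320 CPM after knockdown and 4.56 ± 0.979 CPM in controls (SD, n = 5 each). For *NvfoxE-like* they were NV2.15793, NV2.21484 and NV2.5701, all at 0.12, and NV2.5701 was at 81.4 ± 7.22 CPM after knockdown and 121.6 ± 17.6 CPM in controls (SD, n = 5 each). For *foxA* they were NV2.16432, NV2.3852 and NV2.4456, at 0.085 to 0.090. These genes have no name in the files. Counted among the 19001 genes tested, *foxA* was the 511th nearest gene to *NvfoxE-like* and *NvfoxE-like* the 3199th nearest to *foxA*, at the same distance of 0.25. *NvfoxE-like* was the 271st nearest to *foxL2* and *foxL2* the 11727th nearest to *NvfoxE-like* (0.53). *foxA* was the 1188th nearest to *foxL2* and *foxL2* the 15280th nearest to *foxA* (0.68). The rank thus depends on which gene is taken as the start. A gene with a flat profile would lie at 0.78 from *foxL2*, 0.34 from *NvfoxE-like* and 0.27 from *foxA*. Measured from *NvfoxE-like* and from *foxA*, *foxL2* was thus further away than a flat profile would be. Measured from *foxL2*, both *NvfoxE-like* (0.53) and *foxA* (0.68) were nearer than a flat profile. Genes that share the 10 libraries also share their depth and batches. The difference between knockdown and control is part of each profile, so near genes have a similar fold change by construction.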

How the data were processed

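Paired-end reads of 150 bases were trimmed by a sequencing provider and assigned by the authors to transcripts of the Nvec200 models with Salmon, run in Galaxy. Salmon's version and settings: not given in the sources used here. For each transcript the deposited files hold an estimated count, often fractional, and the authors' TPM. Estimated counts of the transcripts of a gene number were added up and rounded. Gene names come from the supplementary list read from a page image, and no genome coordinates or sequences are given, because the gene numbers are not in the RefSeq table used here.

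Counts were compared over all genes, and over all transcripts, with edgeR 4.0.16 in R 4.3.3 (TMM; filterByExpr, minimum count 10; robust glmQLFit; glmQLFTest), with Benjamini-Hochberg adjustment and no term but condition. Exact permutation tests over libraries (252 regroupings) used scipy 1.17.1. The edgeR and permutation steps were tested on simulated data. Alternatives were other normalizations, count filters, DESeq2 1.42.0, limma 3.58.1 (voom, and log2(TPM + 1) with a pseudocount of 1), replicate or batch terms, effective length offsets, and leaving out libraries and pairs. The replicate numbers pair the libraries, since same-numbered libraries have the same batch in the labels and the methods call them paired. Deviations from the group means correlated at 0.474, −0.0386, 0.191, 0.164 and 0.609 in pairs 1 to 5. Values are per pool of embryos. The main p-values rest on the spread between pools of a group, which includes differences between batches. The regroupings of the permutation tests over libraries did not keep to the pairs. Counting errors assume Poisson counts and cover counting only.

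The genes named were the 3 forkhead genes, *Nvznf845*, of the other transcription factor genes those with the 2 largest and the 2 smallest fold changes and those needed to place a forkhead gene, and the 3 genes nearest in profile to each forkhead gene. The forkhead genes and lists were chosen with earlier results of these data known. A further transcription factor gene of the published list is not reported here.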

Additional observations from a re-analysis of the deposited data

Results flagged for a closer look

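In the *Nvznf845* shRNA library of replicate 3, *foxL2* was at 2.60 CPM, apart from 1.53 to 1.84 CPM in the other 4 libraries of its group. Its gap to the next library was 0.711 of the group's range, just over the critical value of 0.71 for 5 samples. In all, 28 groups of 5 values were examined and this was the only one in which a library stood apart so far, where chance gives about 1 group in 20. The value rests on 34 counts, with a counting error of 17.2%. In TPM the same library had the lowest *foxL2* level of its group, at 1.04, and its log2 ratio to *NvfoxE-like*, which does not depend on scaling, was the highest of its group at −3.31. Without this library the log2 fold change of *foxL2* was −1.66 (adjusted p = 8.67e-05 from edgeR).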

How the results depend on the processing

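Direction and call of *foxL2* and *foxA* were kept in all 28 gene-level alternatives, with log2 fold changes of −1.20 to −1.69 and of −0.19 to −0.42. *NvfoxE-like* was called without pair 3 (−0.62). Leaving out 1 library gave −0.45 to −0.62 for *NvfoxE-like*, −1.40 to −1.66 for *foxL2*, −0.24 to −0.42 for *foxA*, −0.45 to −0.62 for the *NvfoxE-like* transcript, and −0.17 to −0.35 for the difference between *NvfoxE-like* and *foxA*. The replicate block changed no call of a gene or transcript (*NvfoxE-like* −0.54, *foxL2* −1.52, *foxA* −0.27). For the differences of *foxL2* from *NvfoxE-like* (−0.97) and from *foxA* (−1.24), the paired sign-flip test cannot go below p = 0.0625 with 5 pairs, so that exact test says nothing on stability. The *foxL2* transcript lost its call with scaling by library size alone (−1.67). In the fit over genes with that scaling, *foxL2* stayed called (−1.64, adjusted p = 0.0174 from edgeR). Of the 19001 genes tested there, 660 were called lower and 21 higher. *Nkx2.2D* was at −0.0010 in pairs 4 and 5 alone, and *cnido-fos* at 0.051 without knockdown replicate 2 and at 0.041 without pair 1; the cause was not tested. The number of other transcription factor genes called lower was 5 with scaling by library size alone and on log2(TPM + 1) values, where *sox2* was lost, and 6 in the other 26 settings. Depth limits *foxL2*, with 34 to 62 counts per knockdown library, the minor transcripts, *cnido-jun* (1 to 6 counts), *NvpaxA* (17 to 76) and the capsule gene *Ncol* (0 to 1).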
